A study of Homo sapiens with 3 samples.

Results

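The genes described here encode the chaperones, folding enzymes, degradation factors, translocation channel, vesicle coat and stress sensors of the endoplasmic reticulum (ER) in the human myeloma line MM1S, an established line of cultured tumour cells. The list holds 43 genes, and its members were taken by symbol. A probe set counted when the platform annotation gave it exactly 1 gene symbol, that of a listed gene, and when its mean signal over the 3 arrays was 20 or more. This left 107 of 111 probe sets and 41 genes, among 11330 genes measured in the series by the same rule. PDIA5 and SYVN1 had 0 probe sets with a single symbol and have no value here. The weakest probe sets inside the limit belonged to SEC63 and SEC61B, with mean signals of 22.6 and 27.5. Those outside belonged to CREB3L2, XBP1, CANX and EIF2AK3, with mean signals of 12.5, 9.43, 2.97 and 1.87. Each of these 6 genes kept a brighter probe set.

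The 3 groups of MM1S cells gave 1 Affymetrix array each. One was untreated (0 h), and the others were cultured with 10 nM FK866 for 6 h or for 24 h. FK866 inhibits NAMPT, the enzyme that recycles nicotinamide into NAD. All cells grew in RPMI-1640 with fetal bovine serum, antibiotics and glutamine. The model is a single cell line, and treated arrays have no untreated array of their own time, so the compound and time in culture cannot be told apart. Each group is a single array, so no difference could be tested or set against the spread of replicate cultures. In bulk RNA, fewer cells of a kind and less RNA per cell cannot be told apart. The comparisons ask how the secretory machinery of these cells stood early and late under NAMPT inhibition.

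Secreted and membrane proteins enter the ER through the SEC61 channel, fold there with the help of chaperones and disulfide isomerases, and leave in vesicles coated with COPII. Proteins that do not fold are drawn back to the cytosol and degraded. When unfolded protein builds up, the sensors IRE1, PERK and ATF6 start the unfolded protein response. IRE1, encoded by ERN1, splices the mRNA of XBP1, and the resulting transcription factor, with cleaved ATF6, raises transcription of ER chaperones and secretory genes. Plasma cells and myeloma cells secrete immunoglobulin in bulk and depend on this machinery, and XBP1 is needed for plasma cells to form.

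The cells carried plasma cell markers on all 3 arrays. Of 8 fixed markers, 7 were measured, and the list's summed signal was 25390 on the untreated, 26617 on the 6 h and 26944 on the 24 h array. Of 19 fixed markers of T and NK cells, myeloid cells, stroma and mature B cells, 3 were measured (GNLY, CSF1R and COL1A1). The summed signal of each of these other lists lay between 10.0 and 152 on every array, and 26 of their 39 probe sets stayed under 16 throughout. The arrays differed in general level, with median signals of 20.4, 17.4 and 17.2 for untreated, 6 h and 24 h. The median gene stood at -0.10 on the log2 scale at 6 h and at -0.13 at 24 h against untreated cells. Hybridisation spikes are a few transcripts added in equal amounts to every sample and read by several probe sets. Their 12 bright probe sets, not independent of one another, also stood lower on the treated arrays. The medians were -0.16 and -0.19 (12 of 12 probe sets at each time). The part of these shifts in level in the differences described next was not tested.

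Secretory genes were mostly a little lower under FK866 than in untreated cells, as were most genes on these arrays. At 6 h 34 of 41 members had a lower signal than in untreated cells, and at 24 h 38 of 41 did. On the log2 scale the median member lay at -0.19 (6 h) and -0.20 (24 h). Among all genes, 63.4% at 6 h and 65.6% at 24 h were below 0, and 26 and 28 of the 41 members lay below the median gene. Bright genes, those averaging 10 or more on the log2 scale, were below 0 more often. Of 2199 such genes 74.4% were below 0 at 6 h and 76.5% at 24 h. Of the 34 members that bright, 28 (82.4%) and 31 (91.2%) were, so the members stood closer to this background than to all genes. Quantile normalization brought the medians of the members to -0.05 and -0.03, with 25 and 23 members below 0, so the direction of small differences rests on how the arrays are scaled. After it 26 and 29 members lay below the median gene. On the 3 arrays, 34 members had a signal of 1000 or more throughout and 0 fell under the floor of 16 that was set before taking logarithms.

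Members past a fixed size were few. At 6 h 4 of 41 were at least 1.5-fold lower than untreated (SEC24D, ERO1B, EDEM1 and DNAJB9), where 10.4% of all genes were. At least 1.5-fold higher were 0 members, against 5.33% of all genes. At least 2-fold lower was SEC24D alone, against 3.13% of all genes, and 0 members were 2-fold higher, against 1.42%. At 24 h 4 members were at least 1.5-fold lower (ERO1B, SEC24D, XBP1 and DNAJC3), against 13.1%, and 0 were 1.5-fold higher, against 4.49%. ERO1B alone was 2-fold lower at 24 h, against 3.98%, and 0 members were 2-fold higher, against 1.07%. The members' share past 1.5-fold lower, 9.76% at each time, was therefore near the share of all genes. After quantile normalization, 6.26% of all genes were 1.5-fold lower and 9.06% higher at 6 h, and 7.10% and 9.35% at 24 h. Dim genes vary more. Counted over the 2199 bright genes alone (mean log2 signal 10 or higher), the shares were 3.09% lower at 6 h and 5.18% at 24 h. Of the 34 members that bright, 2 were 1.5-fold lower at each time, or 5.88%.

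**Figure D1:**
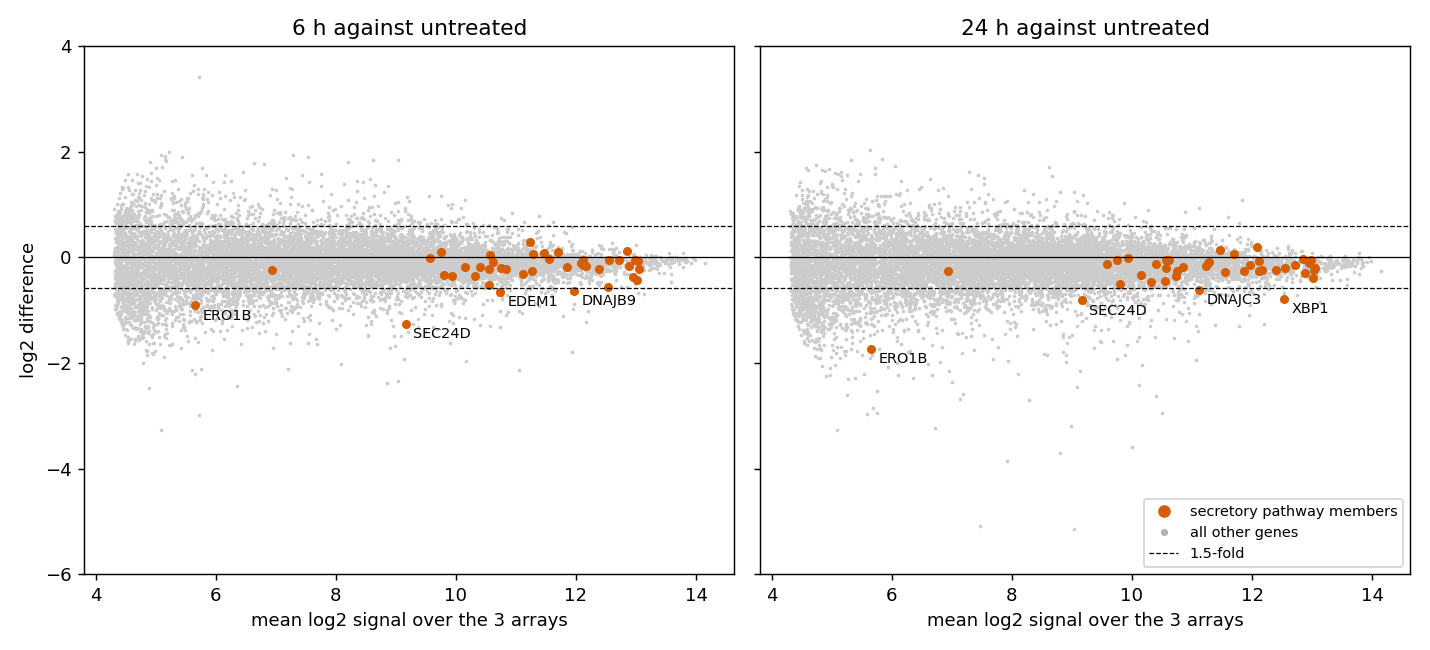
Log2 difference from untreated cells (vertical axis) against the mean log2 signal over the 3 arrays (horizontal axis) for 11330 genes at 6 h and 24 h, with the 41 secretory genes in orange and dashed lines at 1.5-fold. The 4 named members at each time lie below the lower line, and the others lie between the lines, mostly just below 0.

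The only error measure within the series is the spread between probe sets of 1 gene, which covers probe error and isoforms but not variation between cultures. Over the 32 members with several kept probe sets its pooled SD was 0.19 on the log2 scale at 6 h and 0.22 at 24 h. It was 0.37 at both times over the 5709 genes with several. Over the 1467 of these with a mean log2 signal of 10 or higher it was 0.31 at both times. All kept probe sets were below 0 for 25 of these 32 members at 6 h (78.1%) and 24 at 24 h (75%). Over all genes with several probe sets the shares were 41.7% and 45.7%. Most of these genes are dimmer than most members, and the shares over bright genes alone were not computed. All were above 0 for 2 members at each time. The brightest probe sets of HSP90B1, CALR, PDIA6 and SPCS3 are of a kind that may also bind related transcripts, as their suffix _x_at marks, so these values are less certain.

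**Figure D2:**
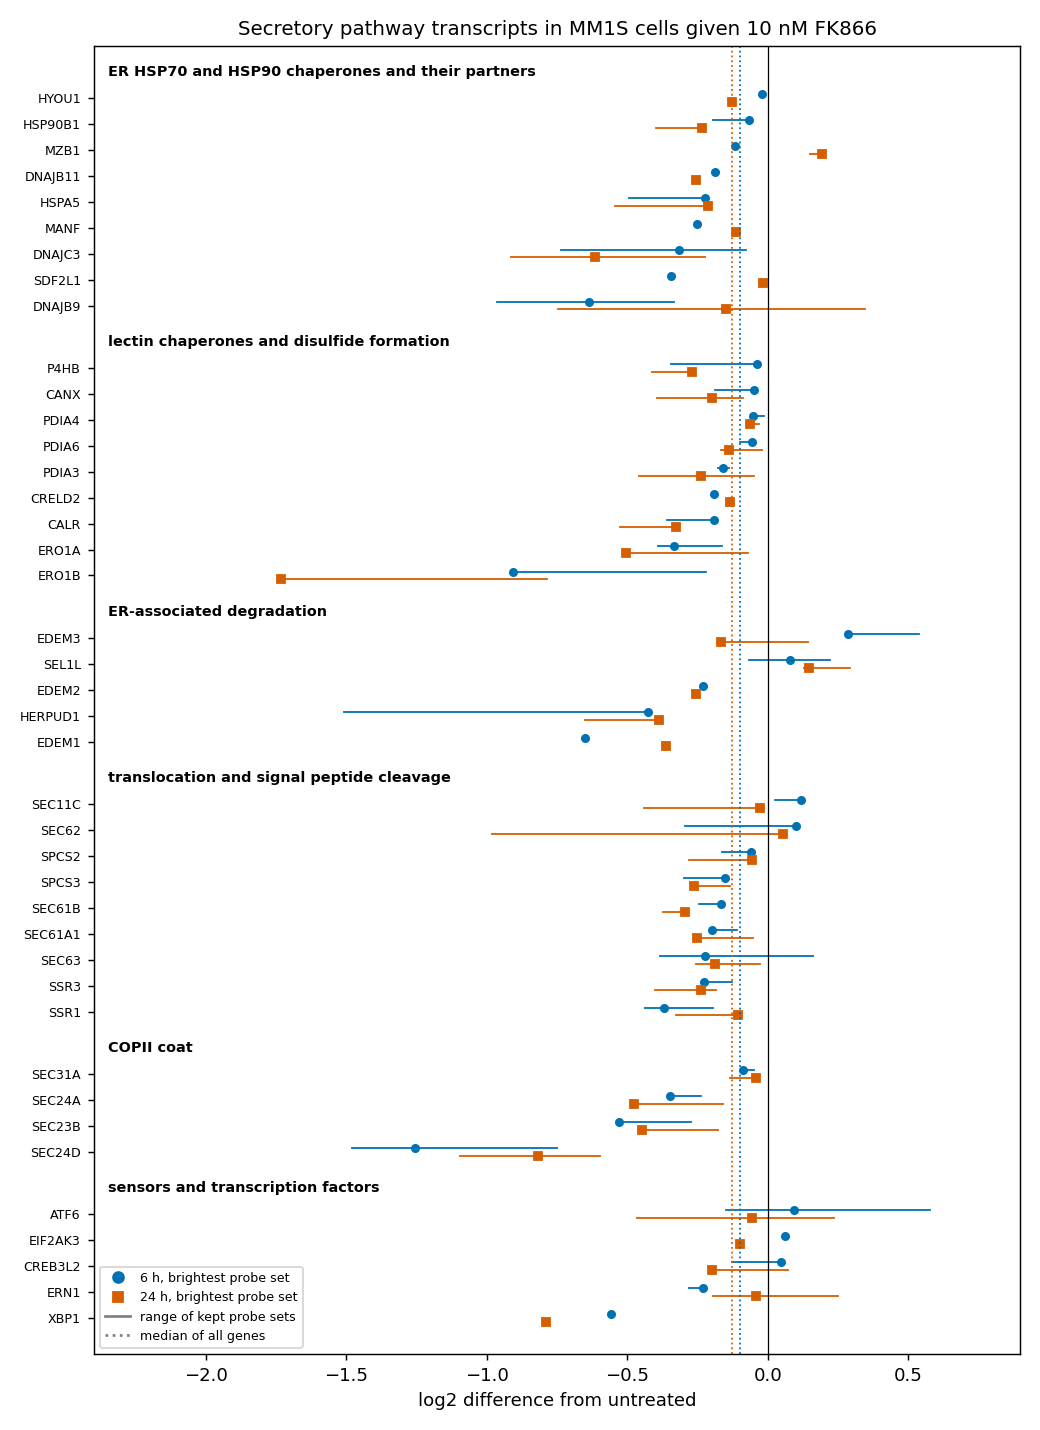
Log2 difference from untreated cells (horizontal axis) for each of 41 genes by role, at 6 h (blue circles) and 24 h (orange squares), with lines over the range of kept probe sets and dotted lines at the median of all genes. SEC24D, ERO1B, XBP1, EDEM1 and DNAJB9 stand furthest left, and SEL1L is the one ER-associated degradation gene right of 0 at both times.

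Promoters were examined because members of this machinery share regulatory elements. The ER stress response element (ERSE), bound by ATF6 together with NF-Y, was searched as CCAAT followed after 9 bases by CCACG, and ERSE-II as ATTGG followed after 1 base by CCACG, on both strands. The windows, from RefSeq on GRCh38.p14, run from 250 bases before to 50 bases after each annotated start, and some genes have several. One form or the other was in 46 of 35116 windows of all genes (0.131%) and in 13 of the 53 windows of the members. By gene, 11 of the 39 members with a window had one. ERSE was in CALR, CANX, CRELD2, ERO1B, HSP90B1, HSPA5, PDIA6 and XBP1 (0.0769% of all windows), and ERSE-II in HERPUD1, HYOU1 and SDF2L1 (0.0541%). SEC24D and PDIA3 were not among the windows used here.

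The stretches around the elements are given for the genes that the following paragraphs turn on, with the fixed bases of each element in capitals. HSPA5 holds the element 66 to 48 bases before its start and XBP1 52 to 34 bases before. ERO1B, the lowest member at 24 h, holds it on the opposite strand. HSP90B1 has one copy on each strand. HERPUD1, SDF2L1 and HYOU1 carry the shorter ERSE-II, HYOU1 in 2 copies. All run 5′ to 3′ along the gene's own strand and end before the start.
HSPA5 (chr9:125241356-125241444, minus strand): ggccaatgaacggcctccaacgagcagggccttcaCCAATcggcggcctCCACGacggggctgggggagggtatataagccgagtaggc
XBP1 (chr22:28800598-28800626, minus strand): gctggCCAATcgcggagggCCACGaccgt
ERO1B (chr1:236282148-236282208, minus strand): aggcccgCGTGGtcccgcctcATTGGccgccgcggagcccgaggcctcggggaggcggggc
HSP90B1 (chr12:103930181-103930374, plus strand): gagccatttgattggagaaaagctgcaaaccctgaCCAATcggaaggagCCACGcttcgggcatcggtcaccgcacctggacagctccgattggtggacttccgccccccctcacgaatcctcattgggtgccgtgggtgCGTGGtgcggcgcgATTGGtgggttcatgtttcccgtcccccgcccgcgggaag
HERPUD1 (chr16:56931990-56932070, plus strand): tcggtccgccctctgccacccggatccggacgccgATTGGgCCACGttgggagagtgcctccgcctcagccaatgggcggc
SDF2L1 (chr22:21642079-21642159, plus strand): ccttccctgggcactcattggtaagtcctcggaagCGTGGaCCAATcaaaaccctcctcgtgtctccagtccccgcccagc
HYOU1 (chr11:119057239-119057425, minus strand): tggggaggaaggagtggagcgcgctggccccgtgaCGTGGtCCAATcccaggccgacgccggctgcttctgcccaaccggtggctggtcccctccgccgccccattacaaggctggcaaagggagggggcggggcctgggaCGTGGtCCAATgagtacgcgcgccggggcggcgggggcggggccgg

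Genes with and without the element had close medians, and the difference was not tested. The 11 members with ERSE or ERSE-II differed by a median of -0.19 at 6 h and -0.21 at 24 h. The 28 without had a median of -0.18 at both times. All 11 were below 0 at both times, from -0.91 (ERO1B) to -0.02 (HYOU1) at 6 h and from -1.73 (ERO1B) to -0.02 (SDF2L1) at 24 h. Without the element, 21 of 28 at 6 h and 25 of 28 at 24 h were below 0. Among all genes 63.4% and 65.6% were, and among bright genes 74.4% and 76.5%. After quantile normalization HYOU1 stood at 0.10 at 6 h and 0.03 at 24 h, so the count of 11 of 11 rests on scaling. At 24 h ERO1B and XBP1 were at least 1.5-fold lower among the 11, and DNAJC3 among the 28. EDEM1 and DNAJB9, both known targets of XBP1, were among those without an exact match in these windows. The sequence TGACGTG, the core of the element that XBP1 binds, was in 5 members (HYOU1, SEC24A, SEC61A1, SEC62 and SSR3) and in 1.97% of all windows; in HYOU1 it overlaps the first ERSE-II. The cAMP response element TGACGTCA was in CREB3L2 alone among the members and in 1.85% of all windows.

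**Figure D3:**
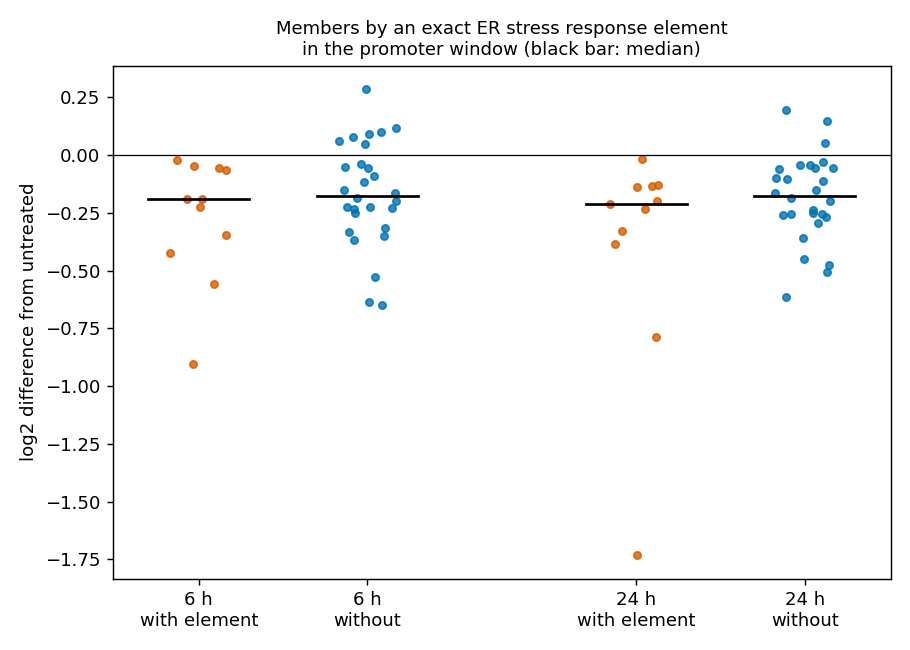
Log2 difference from untreated cells (vertical axis) at 6 h and 24 h for the 11 members with an exact ERSE or ERSE-II in the promoter window (orange) and the 28 without (blue), each point a gene and the black bar the median. The medians lie between -0.21 and -0.18 in every column, and the lowest orange points at 24 h are ERO1B at -1.73 and XBP1 at -0.79.

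Among the sensors and transcription factors, XBP1 was lower at both times while the sensors stayed near their untreated level. XBP1 had a signal of 8110 on the untreated array, 5511 on the 6 h and 4695 on the 24 h array. This made it 1.47-fold lower at 6 h and 1.73-fold at 24 h, on 1 kept probe set. At 24 h it stayed past 1.5-fold after quantile normalization (-0.61) and after subtracting the median gene difference (-0.66). The other alternative settings could hardly change the value of a single bright probe set. Splicing of its mRNA was not measured. ERN1, which encodes IRE1, had signals of 1607, 1370 and 1560, with differences of -0.23 at 6 h and -0.04 at 24 h. EIF2AK3, which encodes PERK, had 2508, 2620 and 2343. The 6 h array was the highest and the 24 h array the lowest, within 1.12-fold of each other.

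ATF6, the ER membrane factor released by cleavage, had signals of 855, 912 and 822, but its 4 probe sets ranged from -0.15 to 0.58 at 6 h and from -0.46 to 0.24 at 24 h. CREB3L2, a related membrane-bound factor of secretory cells, had 1575, 1629 and 1374. At 6 h 2 of these 5 genes were below 0 and at 24 h 5 of 5 were, with medians of 0.05 and -0.10, so the group lay close to the median gene apart from XBP1. After quantile normalization ATF6 and EIF2AK3 were above 0 at both times.

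Chaperones of the HSP70 and HSP90 class and their partners were below untreated in 9 of 9 genes at 6 h and in 8 of 9 at 24 h, with medians of -0.22 and -0.15. Among all genes 63.4% and 65.6% were below 0. Below the median gene were 7 of these 9 at 6 h and 6 at 24 h. DNAJB9, a J-domain cofactor that keeps IRE1 inactive and is itself induced through XBP1, had signals of 4813, 3100 and 4339. It was 1.55-fold lower at 6 h, with 3 probe sets between -0.97 and -0.33, and lay at -0.15 at 24 h, where its probe sets ran from -0.75 to 0.35. The 6 h array was the low one on all 3 probe sets. At 6 h DNAJB9 was not 1.5-fold lower after quantile normalization or after subtracting the median gene difference (the alternatives ran from -0.97 to -0.49).

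DNAJC3, a J-domain cochaperone also known as an inhibitor of PERK, had 2761, 2219 and 1802 and was 1.24-fold and 1.53-fold lower. All 4 of its probe sets were below 0 at both times, from -0.74 to -0.08 at 6 h and from -0.91 to -0.22 at 24 h, so it was lowest on the 24 h array. It was not 1.5-fold lower at 24 h after quantile normalization or after subtracting the median gene difference. HSPA5 (BiP), the main ER HSP70 and the usual marker of ER stress, had 9397, 8046 and 8119. Its differences of -0.22 and -0.21 were close to those of the hybridisation spikes, and its weaker probe set (356, 253 and 244) stood at -0.49 and -0.55.

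HSP90B1 (GRP94), the ER HSP90, had signals of 9008, 8604 and 7656, lowest at 24 h. HYOU1, a nucleotide exchange factor for BiP, had 790, 779 and 723, and was the highest of this group at 6 h with -0.02. DNAJB11, a J-domain partner of BiP, had 4113, 3613 and 3442. Both HSP90B1 and DNAJB11 were lower on each treated array than on the untreated one, by less than 1.2-fold. SDF2L1, which works with DNAJB11, had 1065, 838 and 1053, so the 6 h array was the low one and the 24 h array lay just under untreated, at -0.02. MANF, a secreted ER stress protein, had 2690, 2257 and 2487. MZB1, a cochaperone of antibody assembly in plasma cells, had 4274, 3939 and 4889 and was the 1 member of the group above untreated at 24 h, at 0.19, with both probe sets at 0.15 or more.

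Genes of the lectin chaperone cycle and of disulfide formation were below untreated in 9 of 9 measured genes at both times, with medians of -0.16 and -0.24. Among all genes 63.4% and 65.6% were below 0, and 5 of these 9 at 6 h and 8 at 24 h lay below the median gene. Most differences were small. ERO1B, an oxidase that recharges protein disulfide isomerase, was the exception, with signals of 92.7, 49.5 and 27.9. It was 1.87-fold lower at 6 h and 3.32-fold at 24 h, and 1.77-fold lower on the 24 h than on the 6 h array. Its other probe set (60.5, 51.9 and 35.1) differed by -0.22 and -0.79, and each array was lower than the one before it on both. The gene is dim, and with a floor of 64 its differences were -0.53 at both times, not past 1.5-fold; over 7 alternatives it was past that size in 5 at 6 h and 6 at 24 h. ERO1A, the more widely expressed oxidase, had 1081, 859 and 761, with 3 probe sets between -0.39 and -0.16 at 6 h and between -0.51 and -0.07 at 24 h.

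Calnexin (CANX) had signals of 6332, 6120 and 5518 and calreticulin (CALR) 1277, 1118 and 1018; these lectins hold newly made glycoproteins during folding. PDIA3, the isomerase that works with them, had 5045, 4521 and 4283. By their brightest probe sets all 3 genes were lowest at 24 h, by 1.15-fold to 1.26-fold. A weaker probe set of CANX (1966, 1726 and 1851) and a weaker one of PDIA3 (177, 156 and 171) were lowest at 6 h. A weaker one of CALR was equal on both treated arrays. The disulfide isomerase P4HB had 3210, 3128 and 2663, or -0.04 at 6 h and -0.27 at 24 h. Its other 2 probe sets stood at -0.27 and -0.34 already at 6 h, so the near-level 6 h value is that of the brightest probe set alone. PDIA4 (4561, 4399 and 4370) and PDIA6 (7080, 6808 and 6430), further isomerases, differed by -0.14 to -0.05. PDIA4 was the highest of the group at 24 h, at -0.06. CRELD2, an ER stress-induced thiol protein, had 1455, 1274 and 1326.

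Genes of ER-associated degradation went apart. EDEM1, a lectin that passes misfolded glycoproteins on to degradation and a known XBP1 target, had signals of 2156, 1374 and 1679 on its 1 probe set. It was 1.57-fold lower at 6 h and lay at -0.36 at 24 h, with the 6 h array the lowest. After quantile normalization or subtracting the median gene difference it was not 1.5-fold lower (-0.51 at the least). HERPUD1, a scaffold of the degradation complex and a strongly stress-induced gene, had 9968, 7426 and 7622, or 1.34-fold and 1.31-fold lower. Its dim probe set (58.1, 20.4 and 37.0) stood at -1.51 and -0.65, so the mean over probe sets was past 1.5-fold at 6 h.

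EDEM3, a mannosidase of the EDEM family, had 2349, 2863 and 2094, and was the highest of all members at 6 h, at 0.29. Its 3 probe sets lay between 0.29 and 0.54 at 6 h and between -0.17 and 0.14 at 24 h. EDEM2, which starts mannose trimming, had 138, 117 and 115. SEL1L, the adaptor of the HRD1 ubiquitin ligase, had 2690, 2844 and 2976, with 4 probe sets between 0.13 and 0.29 at 24 h. EDEM1 and EDEM3 thus differed from untreated in opposite directions at 6 h, by -0.65 and 0.29. In all, 3 of 5 measured genes were below 0 at 6 h and 4 of 5 at 24 h, with medians of -0.23 and -0.25.

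**Figure D4:**
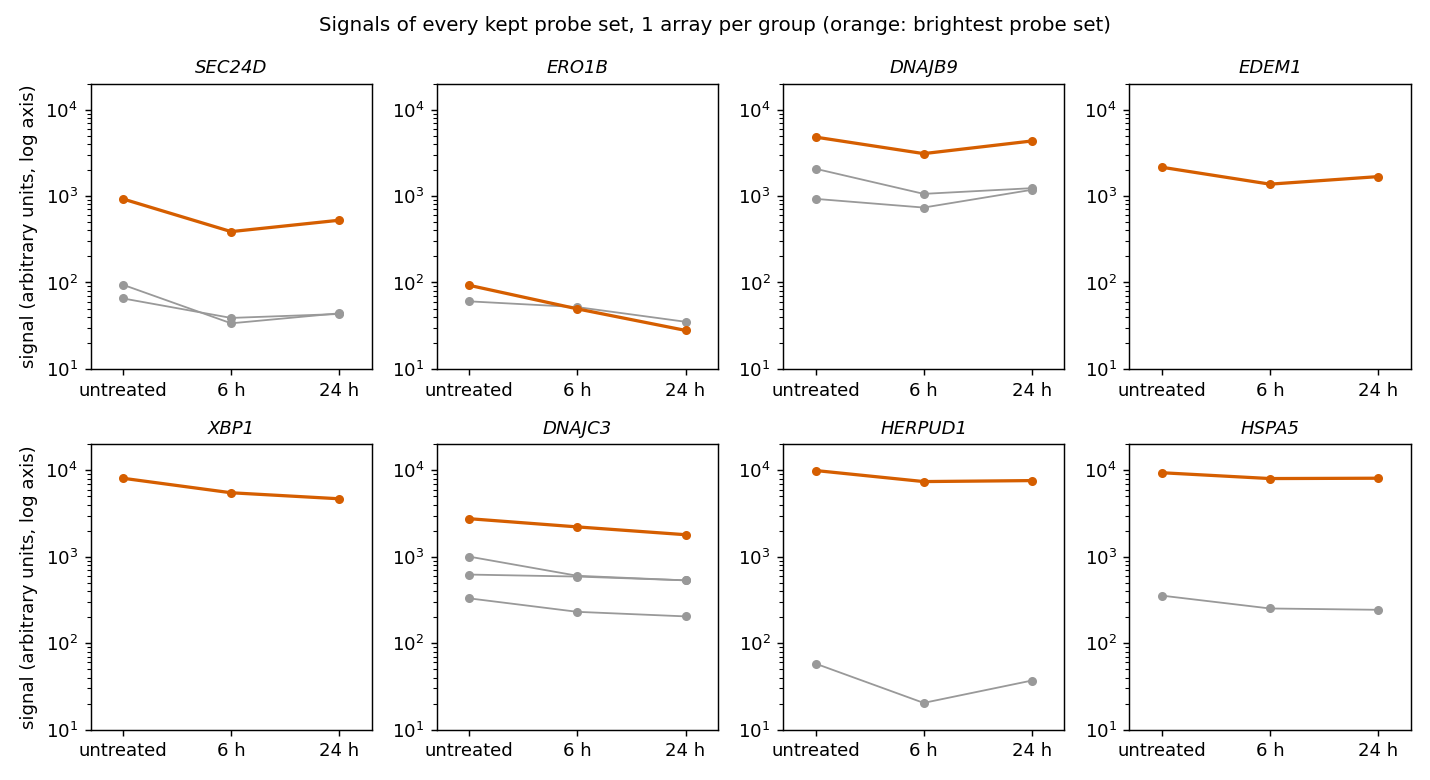
Signals in arbitrary units (vertical log axis) of every kept probe set of 8 genes on the untreated, 6 h and 24 h arrays, with the brightest probe set in orange. SEC24D, DNAJB9 and EDEM1 are lowest at 6 h, ERO1B, XBP1 and DNAJC3 are lowest at 24 h, and the brightest probe sets of HSPA5 and HERPUD1 are nearly level between the treated arrays, while the dim one of HERPUD1 goes from 20.4 to 37.0.

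The translocation and signal peptide genes moved little, with 0 of 9 past 1.5-fold at either time and medians of -0.17 and -0.19. SSR1, a subunit of the translocon-associated protein complex, was lowest at 6 h, with signals of 8872, 6866 and 8249. All 6 of its probe sets were below 0 at both times, between -0.44 and -0.20 at 6 h and between -0.33 and -0.11 at 24 h. SSR3, of the same complex, had 5981, 5112 and 5079, with 4 of 4 probe sets below 0 at both times. The channel subunits SEC61A1 (1916, 1672 and 1610) and SEC61B (8371, 7467 and 6833) were lower on each treated array, SEC61B being the lowest of the group at 24 h, at -0.29.

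SEC62 and SEC63 assist the channel after translation. SEC62 had 3216, 3451 and 3340, but its 5 probe sets ran from -0.98 to 0.05 at 24 h, so its direction depends on the probe set. SEC63 had 2018, 1727 and 1773. SEC11C, a catalytic subunit of signal peptidase, had 7237, 7857 and 7094 and was the highest of the group at 6 h, at 0.12. Its partners SPCS2 (8302, 7975 and 7996) and SPCS3 (4860, 4377 and 4055) differed by -0.06 and -0.15 at 6 h. The signal peptidase genes thus stayed within 1.2-fold of untreated on both treated arrays by their brightest probe sets.

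Among the members in the COPII coat, which carries cargo out of the ER, the cargo-binding and inner coat genes were lower and the outer coat gene was near level. Their close relatives outside the member list, given below, were not all lower. SEC24D, a cargo-binding subunit, had signals of 926, 388 and 525. It was 2.39-fold lower at 6 h and 1.76-fold at 24 h, and its 3 probe sets spanned -1.48 to -0.75 at the first time and -1.10 to -0.60 at the second. Every probe set of SEC24D was below untreated on both treated arrays. Its value was past 1.5-fold at both times under all 8 alternative settings (-1.26 to -1.15 at 6 h, -0.84 to -0.67 at 24 h). Of these, the floor and filter settings left it unchanged. SEC23B, the inner coat partner that activates the SAR1 GTPase, had 1886, 1306 and 1383, or 1.44-fold and 1.36-fold lower. SEC24A, another cargo subunit, had 1546, 1214 and 1110, or 1.27-fold and 1.39-fold lower.

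SEC31A, of the outer coat, had 1620, 1523 and 1572, with differences of -0.09 and -0.04. Over these 4 genes the median was -0.44 at 6 h and -0.46 at 24 h, the lowest of the 6 role groups at both times. Of 12 other COPII genes measured from a fixed list, 5 were below 0 at 6 h and 7 at 24 h, with medians of 0.01 and -0.04. Among them are close relatives of the members. SEC24B stood at 0.06 at 6 h and -0.29 at 24 h, SEC24C at 0.01 and 0.17, and SEC23A at -0.17 and 0.17. SEC16A, a scaffold of the sites where COPII forms, stood at -0.35 and -0.27. The low median of the 4 members rests on SEC24D, SEC23B and SEC24A.

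Between the treated arrays members differed in both directions. Of the 41 members 25 were lower at 24 h than at 6 h (61.0%), against 55.1% of all genes. Of the 33 members below untreated at both times, 14 were nearer to the untreated signal at 24 h than at 6 h and 19 were further from it. The same shares over all genes were not computed. Some of these differences, such as 0.004 for SPCS2 and -0.009 for SSR3, were smaller in size than that of the median gene, so their side rests on scaling. DNAJB9 (0.49), SEC24D (0.44), SDF2L1 (0.33), EDEM1 (0.29) and SSR1 (0.26) had the largest differences toward untreated. ERO1B (-0.83), DNAJC3 (-0.30), P4HB (-0.23) and XBP1 (-0.23) had the largest in the other direction. The genes that were lowest at 6 h and those lowest at 24 h were thus partly different ones. At least 1.5-fold lower at 24 h than at 6 h was ERO1B alone, against 7.50% of all genes, and 0 members were 1.5-fold higher, against 4.69%. Past 2-fold were 0 members in either direction, against 1.82% of all genes lower and 1.05% higher. The median member difference was -0.05 and that of all genes -0.04. These comparisons share the 6 h and 24 h arrays with those against untreated cells.

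Other genes of the same pathways, from fixed lists that hold no member, had medians close to those of all genes. How their counts past a fixed size compare depends on the background. Of 123 listed, 113 were measured, with a median of -0.12 at 6 h and -0.17 at 24 h. At 6 h 2 were at least 1.5-fold lower and 2 higher, and at 24 h 3 were lower and 4 higher. Among all genes 10.4% and 13.1% were that much lower and 5.33% and 4.49% higher. Among the 2199 bright genes 3.09% and 5.18% were lower and 0.77% and 0.50% higher. The oligosaccharyltransferase, which attaches glycans to proteins entering the ER, was below untreated in 9 of 10 genes at 6 h and 10 of 10 at 24 h, with medians of -0.16 and -0.29 and 0 past 1.5-fold. Below the median gene were 7 of these 10 at 6 h and 9 at 24 h. STT3B, a catalytic subunit of this enzyme, had signals of 4188, 3640 and 2841, and RPN2 8731, 8761 and 8016. In the signal recognition particle and its receptor 0 of 8 genes passed 1.5-fold, with SRP9 lowest at -0.40 and SRP54 highest at 0.26, both at 24 h.

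The PERK and ATF4 arm was below untreated in 10 of 11 measured genes at 6 h and 8 of 11 at 24 h, with medians of -0.34 and -0.20. Below the median gene were 8 of these 11 at 6 h and 6 at 24 h. At 6 h 0 of them passed 1.5-fold and at 24 h 2 did. These were SESN2 (75.1, 53.9 and 45.0), a stress-induced regulator of mTORC1, and VLDLR (50.5, 36.7 and 31.1), a lipoprotein receptor, both dim. TRIB3, a pseudokinase induced by ATF4, had 214, 169 and 245, the highest of the arm at 24 h at 0.19. Further membrane-bound factors, genes that activate such factors and partners of IRE1 formed the 1 pathway list with a median above 0 at both times. The medians were 0.04 and 0.02 over 7 genes, of which 1 was below 0 at 6 h and 3 at 24 h. There MAP3K5 (ASK1), a kinase engaged by IRE1, had 244, 350 and 502, or 1.43-fold and 2.06-fold higher. CREB3L4, a membrane-bound factor, had 121, 187 and 198, or 1.55-fold and 1.64-fold higher.

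Further degradation factors had medians of -0.12 and -0.19 over 16 genes, with 0 past 1.5-fold at 6 h. NPLOC4, a cofactor of the segregase VCP, was lowest at -0.50 at 24 h, and the ubiquitin ligase RNF5 was past 1.5-fold higher at 24 h from a signal next to the floor (17.7, 15.8 and 30.5). Further folding enzymes had medians of -0.15 and -0.19 over 24 genes. MOGS, which trims the first glucose from new glycans, had 204, 99.8 and 178, or 2.04-fold lower at 6 h and -0.20 at 24 h. Further translocation and signal peptidase genes had medians of -0.10 and -0.11 over 7 genes, with SEC61A2 at 0.15 and -0.53. Among the remaining COPII genes MIA2, a cargo adaptor, was lowest at -0.59 and PREB, which activates SAR1, highest at 0.26, both at 24 h. COPI and cargo receptors had medians of -0.09 and -0.02 over 18 genes. The retrieval receptor KDELR3, dim at 30.9, 17.3 and 35.6, was 1.79-fold lower at 6 h and 2.06-fold higher at 24 h than at 6 h. In these lists the genes past 2-fold in any comparison were MAP3K5, MOGS and KDELR3, of 113 measured.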

How the data were processed

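Affymetrix arrays measured transcript levels in MM1S cells, untreated or after 6 h or 24 h with 10 nM FK866, 1 array per group. Per the labels, biotinylated cRNA was made from total RNA. The authors deposited 1 linear intensity per probe set and array; background correction, summary and scaling are not given in the sources used here. The small number of arrays sets the precision. Of 54675 probe sets, GEO's platform annotation of 2016 gave 1 symbol for 41097, several for 1801 and none for 11777.

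Signals under 16 were set to 16 and log2 taken. A gene has the value of its brightest kept probe set. Differences are log2 differences between arrays; 1.5-fold and 2-fold are described sizes, not tests. Full signals are given for HSPA5, XBP1, ERN1, EIF2AK3, ATF6, members past 1.5-fold and the extremes of each role group, and, chosen after their values were seen, for the remaining members. From the other lists, genes past 2-fold, or else the lowest and highest gene, are named. VLDLR, CREB3L4, SEC16A, SEC23A, SEC24B and SEC24C were added after their values were seen. The members and lists were chosen with earlier results of these data known. 8 alternatives covered scaling, floor, filter and probe set summary, besides the size of 2-fold; the background of bright genes was added after seeing the data. The procedure was tested on simulated data. Promoter sequences are from RefSeq, GRCh38.p14. Protein sequence features had been planned and were not analysed here. Python 3.11.15, numpy 2.4.6, pandas 2.3.3 and matplotlib 3.10.9 were used.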

Additional observations from a re-analysis of the deposited data

Results flagged for a closer look

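In 6 of 41 members the 6 h and 24 h arrays differed from untreated cells in opposite directions. The share of all genes that did so was not computed, so the count cannot be called high or low. The difference between the times was not tested, and both share the untreated array. The 24 h against 6 h difference on the log2 scale was 0.31 for MZB1, which was below untreated at 6 h and above it at 24 h. The other 5 were above untreated at 6 h and below it at 24 h. This difference was -0.45 for EDEM3, -0.25 for CREB3L2, -0.16 for EIF2AK3 and -0.15 for each of ATF6 and SEC11C. After subtracting the median gene difference 3 of the 6 (MZB1, EDEM3 and CREB3L2) kept opposite directions, and after quantile normalization CREB3L2 alone did. Its 24 h difference was then only -0.02. The other kept probe set of CREB3L2 went the reverse way in the main setting, at -0.13 at 6 h and 0.07 at 24 h.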

How the results depend on the processing

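No paired analysis was possible because each group has 1 array, and for the same reason no replicate could be left out. Scaling moved the medians over members most, and probe set choice, the floor or the offset moved most of the single members' values that shifted. Quantile normalization moved the median member difference to -0.0499 at 6 h, -0.0252 at 24 h and -0.0039 between the treated arrays, and left 2 members 1.5-fold lower at 6 h. Subtracting the median gene difference gave -0.0919, -0.0709 and -0.0171, and also left 2 at 6 h. With 2-fold as the size, 1 member was lower at 6 h, 1 at 24 h and 0 between the treated arrays. Between the treated arrays, 0 members were 1.5-fold lower with a floor of 64, with log2(signal + 32) or with a mean signal of at least 100. Without probe sets that may cross-hybridise that median was -0.0094, with 1 member, HERPUD1, 1.5-fold higher on its dim probe set. Of 78 values of medians and counts under the alternatives, 62 stayed within 1.5 times the reported count or within the error of the median from the probe set spread. Of 513 values for 22 named members, 22 moved by more than the probe set SD and 0 members past 1.5-fold changed direction. The error of the median treats members as independent and does not cover variation between cultures. Some alternatives could hardly change a value, and dropping the filter left the medians over members as they were. These counts are therefore no measure of how stable the results are. Dim signal limits ERO1B above all.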
